A study of Homo sapiens with 6 samples.

Results

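Genes of the NRF2 and thiol antioxidant system were followed in MM1.S cells, a line of human multiple myeloma, which is a cancer of plasma cells, after lentiviral knockdown of beta-catenin. The 10 members were NFE2L2, HMOX1, NQO1, GCLC, GCLM, TXN, TXNRD1, SRXN1, PRDX1 and OSGIN1, and every probe set that the array annotation pairs with such a symbol was taken, which gave 21 of the 54675 probe sets on the array. Of these 21, 20 carried 1 gene symbol, and 1 was shared between NFE2L2 and CSNK2A1 and is not read here as a measurement of either gene. The rule goes by gene symbol, but the members were chosen with earlier results of these arrays known, so their counts are a description and no independent evidence of a direction.

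The knockdown group was 3 cultures of MM1.S cells infected with a pKLO lentivirus carrying a beta-catenin shRNA, and the control group was 3 cultures infected with the pKLO GFP control virus. Both groups had thus been transduced and sorted for GFP, and the titles call the arrays of a group biological replicates, while the protocol describes triplicate cultures and names no separate infections. P-values therefore measure the spread between these cultures and not between infections. Total RNA was hybridised as biotin-labelled cRNA to 6 Affymetrix arrays of 1 colour, and each value is a log2 expression value per probe set. No value lies below 4, as if 16 had been added to each signal before the log2 was taken, so folds of dim probe sets come out too small.

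NRF2, encoded by NFE2L2, is the transcription factor that answers oxidants and electrophiles. KEAP1 holds it in the cytosol and hands it to the CUL3 and RBX1 ubiquitin ligase for destruction; when cysteines of KEAP1 are modified, NRF2 accumulates, pairs with a small MAF protein and binds antioxidant response elements, which the repressor BACH1 can occupy instead. Much of this control acts on the NRF2 protein and not on its transcript. The targets feed the main thiol systems of the cell, in which glutathione and thioredoxin pass electrons from NADPH to oxidised proteins and peroxides, and plasma cells are known to depend on them because they fold large amounts of disulfide-bonded antibody.

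The arrays were similar within groups. Array medians lay between 5.5019 and 5.5351 in knockdown arrays and between 5.4384 and 5.5016 in control arrays, so each knockdown median was the higher. Across probe sets (not independent replicates) Pearson's r was 0.9855 to 0.9897 within the knockdown group, 0.9801 to 0.9832 within the control group and 0.9449 to 0.9535 between groups. On its brightest probe set the targeted transcript CTNNB1 read 6.39, 6.53 and 6.34 in knockdown cultures and 7.82, 7.67 and 7.75 in control cultures. This was a change of -1.33 on the log2 scale. A dimmer CTNNB1 probe set, 223679_at, was called higher by 0.33 without overlap (limma, adjusted p = 0.0390 over probe sets). Another, 1554411_at, differed by -0.07 and was not called. All 8 plasma cell markers listed lay above the filter on dim genes, and their mean log2 value was 9.49 to 9.56 in knockdown and 9.27 to 9.38 in control arrays. The markers went both ways. The 4 called higher were CD38, PRDM1, SLAMF7 and MZB1, the 3 called lower were SDC1, TNFRSF17 and IRF4, and XBP1 was not called. Of 18 measured markers of T and NK, myeloid, fibroblast, epithelial and erythroid cells, 9 passed that filter. Of these, CSF1R and HBB were called higher, HBB with overlap between the groups, 0 were called lower and 7 were not called. Beside both marker counts stand 25.3% of all genes tested called higher and 22.0% called lower. The mean log2 value of the 18 was 5.87 to 5.91 in knockdown and 5.86 to 5.89 in control arrays, and their part in the results was not tested. The arrays' ribosomal RNA control probe sets averaged 9.92 ± 0.26 in knockdown and 9.02 ± 0.54 in control arrays (SD, n = 3 each; exact permutation p = 0.1, the smallest that 3 against 3 arrays can give), and their part in what follows was not tested either.

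Of the 9 member genes that could be tested, 6 were called lower in the knockdown, with the largest falls in TXNRD1 and TXN. With each gene read by its brightest probe set of 1 symbol, 9 of the 10 members passed the filter on dim genes, 6 were called lower, 1 was called higher and 2 were not called (limma, two-sided, Benjamini-Hochberg adjusted p below 0.05 over 12939 genes). The background in this comparison was wide: 22.0% of all genes tested were called lower, 25.3% higher and 47.3% in either direction. In these bulk samples, fewer cells with a transcript and less of it per cell cannot be told apart. The median change of the 9 members was -0.31, and that of all genes tested was 0.05. The 3 knockdown values lay apart from the 3 control values for 9 of the 9 genes, 8 below and 1 above, against 54.4% of all genes tested in either direction. TXN, TXNRD1, PRDX1 and GCLM were called lower and NFE2L2 was called higher in each fit that left out 1 array. HMOX1 and NQO1, the other members called lower, lost their call in some of these fits, as given below. The probe sets of NQO1 differed in direction. Its place among the 6 called lower and the 8 below rests on its brightest probe set alone.

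**Figure D1:**
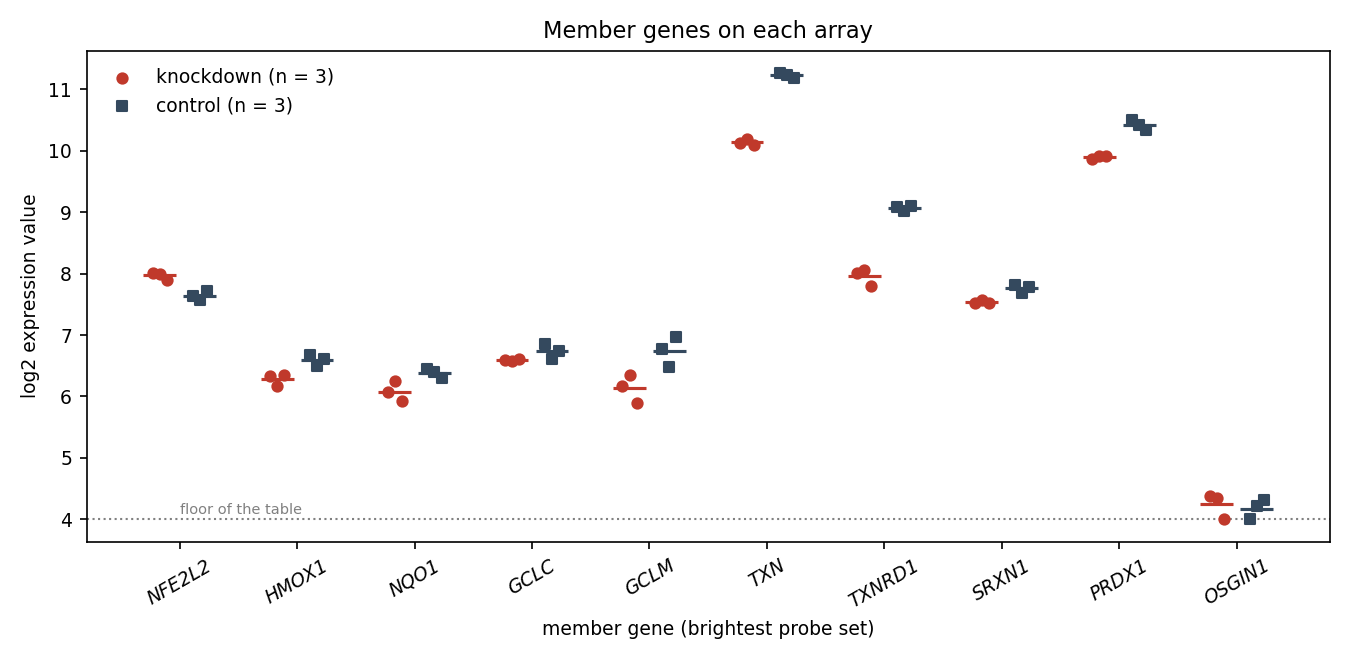
Log2 expression value (vertical axis) of the brightest probe set of each of the 10 member genes (horizontal axis), with a point for each of 3 knockdown arrays on the left, 3 control arrays on the right of each gene, and a line at the group mean. TXN and TXNRD1 stand about 1.1 lower in the knockdown, NFE2L2 stands 0.33 higher, and OSGIN1 lies near the dotted floor at 4 in both groups; heights of different genes are not comparable because each probe set has its own response.

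By probe set, with the adjustment made over all 54613 non-control probe sets, 9 of the 20 with 1 symbol were called lower, 1 higher and 10 were not called, where the background was 9.95% lower, 13.3% higher and 23.2% in either direction. Every GCLM and TXN probe set is among the 9, so these are not 9 separate genes. Of the 14 that lay at or above the table's median of 5.49, 8 were lower, 1 higher and 5 not called, where 17.1% of all probe sets at that level were called lower and 21.2% higher. Of the 6 dimmer ones, 1 was lower and 5 were not called. The share called among all dim probe sets was not computed, so this count has no background beside it. Members with several bright probe sets did not all read alike: TXN and GCLM were lower on each bright probe set, while those of NQO1, GCLC and NFE2L2 differed in size or direction. Whether the change differed between probe sets of a gene was not tested, and the transcripts behind each probe set were not analysed here.

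**Figure D2:**
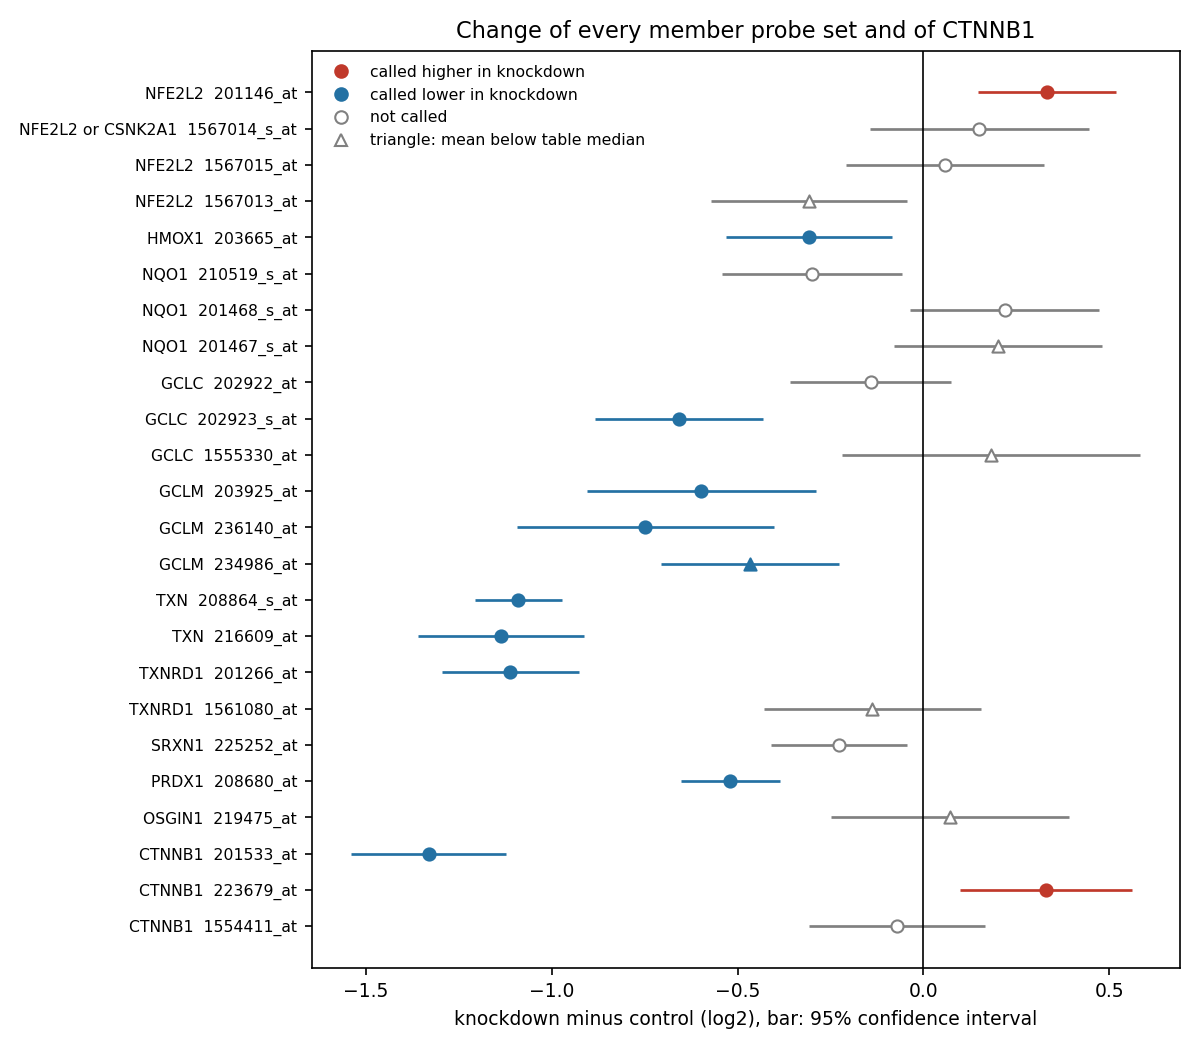
Change in knockdown minus control on the log2 scale (horizontal axis) with its 95% confidence interval for the 21 member probe sets and 3 CTNNB1 probe sets (vertical axis), filled where called by limma over all probe sets and drawn as triangles where the mean lies below the table's median. Both TXN probe sets and the bright TXNRD1 probe set lie between -1.09 and -1.14, the 3 GCLM probe sets between -0.47 and -0.75, and the 3 NQO1 probe sets on both sides of 0.

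Thioredoxin and its reductase fell together. TXN encodes thioredoxin, the small protein that reduces disulfides of its partners. On the brighter probe set, 208864_s_at, TXN read 10.12, 10.19 and 10.10 in knockdown cultures and 11.27, 11.23 and 11.18 in control cultures. The groups were about 1 log2 unit apart, far more than the spread within either. TXN fell by 1.09 on the log2 scale (SE 0.06, limma, adjusted p = 1.02e-15 over genes), or 2.13-fold. For this probe set the limma fit over probe sets gave an adjusted p of 5.88e-09. The linear fit over genes without moderation, in which each gene's variance stands alone, gave 0.00120. The other probe set, 216609_at, read 7.43, 7.62 and 7.21 in knockdown and 8.58, 8.60 and 8.49 in control cultures, a change of -1.14 (SE 0.10, limma, adjusted p = 1.97e-06 over probe sets). Among the genes tested, 2.68% had a lower value of the change than TXN.

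TXNRD1 encodes the cytosolic thioredoxin reductase, a selenoprotein that returns thioredoxin to its reduced form with NADPH. Its bright probe set, 201266_at, read 8.02, 8.06 and 7.80 in knockdown cultures and 9.08, 9.02 and 9.11 in control cultures. Knockdown replicate 3 was the lowest array, and the groups did not overlap. TXNRD1 fell by 1.11 (SE 0.09, limma, adjusted p = 2.35e-11 over genes), or 2.16-fold, and 2.56% of the genes tested had a lower change. The fit over genes without moderation gave it an adjusted p of 0.00357. The second TXNRD1 probe set had a mean of 4.69, below the table's median, and averaged 4.62 in knockdown and 4.76 in control arrays (limma, adjusted p = 0.535 over probe sets). With the mean over both probe sets the change of TXNRD1 was -0.62. The 4 tested genes whose values ran most like TXNRD1 over the 6 arrays were G3BP1, SHCBP1, PLK1 and BUB1B, with Pearson's r of 0.9991 to 0.9996. This is a description of 6 arrays in 2 groups, in which 372 genes reached an r over 0.99 with TXNRD1.

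PRDX1 encodes peroxiredoxin 1, a peroxidase of hydrogen peroxide that thioredoxin recycles. It read 9.86, 9.92 and 9.91 in knockdown cultures and 10.50, 10.42 and 10.34 in control cultures, with no overlap. PRDX1 fell by 0.52 (SE 0.06, limma, adjusted p = 1.06e-07 over genes), or 1.43-fold. The fit over genes without moderation gave it an adjusted p of 0.00599. SRXN1 encodes sulfiredoxin, which repairs peroxiredoxins that peroxide has over-oxidised. It read 7.52, 7.57 and 7.53 in knockdown and 7.82, 7.69 and 7.78 in control cultures. The groups lay apart by a narrow gap, and the difference of -0.23 (SE 0.10) did not pass the threshold (limma, adjusted p = 0.0547 over genes). It passed without control replicate 2 (adjusted p = 0.0341), under the 3 other scalings between arrays (0.0116 to 0.0136), with a filter at the 75th percentile (0.0470), with the mean over probe sets (0.0266) and without moderation (0.0229).

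Glutathione synthesis was read by both subunits of its rate-limiting enzyme, glutamate-cysteine ligase. GCLM encodes the modifier subunit, which makes the enzyme more efficient. On its brightest probe set, 203925_at, GCLM read 6.18, 6.35 and 5.89 in knockdown cultures and 6.77, 6.48 and 6.96 in control cultures. Its replicates were more scattered than those of TXN, and the highest knockdown value came close to the lowest control value. GCLM fell by 0.60 (SE 0.13, limma, adjusted p = 2.86e-04 over genes), or 1.51-fold, and was not called without moderation (adjusted p = 0.0870). The probe sets 236140_at and 234986_at changed by -0.75 (SE 0.16, limma, adjusted p = 0.00335 over probe sets) and by -0.47 (SE 0.11, limma, adjusted p = 0.00688 over probe sets). On 203925_at and 236140_at the arrays stood in the same order, with knockdown replicate 3 lowest and control replicate 3 highest.

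GCLC encodes the catalytic subunit. Its probe sets did not give 1 answer. The brightest, 202922_at, read 6.59, 6.58 and 6.60 in knockdown cultures and 6.85, 6.60 and 6.74 in control cultures, a difference of -0.14 (SE 0.11, limma, adjusted p = 0.291 over genes), and control replicate 2 lay next to the knockdown arrays. A slightly dimmer one, 202923_s_at, read 6.01, 5.96 and 5.96 in knockdown and 6.54, 6.59 and 6.78 in control cultures, a wide gap, and fell by 0.66 (SE 0.11, limma, adjusted p = 3.52e-04 over probe sets). A dim one, 1555330_at, had a mean of 4.66, below the table's median, and differed by 0.18 (limma, adjusted p = 0.553 over probe sets).

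HMOX1 and NQO1, which are often read as indicators of NRF2, differed by about 0.3 between groups on their brightest probe sets. HMOX1 encodes haem oxygenase 1, which breaks haem into biliverdin, iron and carbon monoxide. It read 6.34, 6.18 and 6.34 in knockdown cultures and 6.67, 6.50 and 6.61 in control cultures. The groups did not overlap, and HMOX1 fell by 0.31 (SE 0.11), or 1.24-fold (limma, adjusted p = 0.0207 over genes and 0.0460 over probe sets). The call over genes was lost without knockdown replicate 2 (adjusted p = 0.113), without control replicate 1 (0.0798) and without control replicate 3 (0.0522), and that over probe sets in 5 of the 6 fits that left out an array (adjusted p up to 0.181).

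NQO1 encodes a quinone reductase that uses NADPH or NADH. The brightest probe set, 210519_s_at, read 6.07, 6.25 and 5.92 in knockdown and 6.44, 6.40 and 6.30 in control cultures, which stood close together without overlapping. The change of -0.30 (SE 0.11) was called over genes (limma, adjusted p = 0.0315) and was not called over all probe sets (limma, adjusted p = 0.0742). A nearly as bright one, 201468_s_at, read 6.31, 6.16 and 6.13 in knockdown and 5.88, 5.87 and 6.19 in control cultures. These groups overlapped through control replicate 3, and the difference ran the other way at 0.22 (SE 0.12, limma, adjusted p = 0.221 over probe sets). A dim one, below the table's median, differed by 0.20 (limma, adjusted p = 0.317 over probe sets). Averaged over its probe sets NQO1 differed by 0.04 (limma, adjusted p = 0.723), and the call over genes was also lost without knockdown replicate 1 (0.0800), knockdown replicate 3 (0.145), control replicate 1 (0.105) or control replicate 2 (0.0547). No direction of NQO1 is therefore stated from these arrays.

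OSGIN1, an NRF2-responsive growth inhibitor gene, lay near the floor. It read 4.377, 4.351 and 4.0003 in knockdown cultures and 4.0004, 4.208 and 4.307 in control cultures, so the groups overlapped, and a fall could hardly have shown at this level. NFE2L2 itself was higher. On its brightest probe set, 201146_at, NFE2L2 read 8.017, 7.998 and 7.897 in knockdown cultures and 7.629, 7.568 and 7.717 in control cultures, with no overlap. NFE2L2 rose by 0.33 (SE 0.10, limma, adjusted p = 0.00540 over genes), or 1.26-fold. Over probe sets the adjusted p was 0.0116 by limma, and 0.0716 without knockdown replicate 1 and 0.0504 without knockdown replicate 2. Of the genes tested, 80.2% had a lower change. The other probe sets with its symbol alone were dimmer: 1567015_at averaged 5.77 in knockdown and 5.72 in control arrays (limma, adjusted p = 0.801 over probe sets), and 1567013_at, below the table's median, averaged 4.78 in knockdown and 5.09 in control arrays (limma, adjusted p = 0.0912 over probe sets). With the mean over these 3 probe sets the difference was 0.03 (limma, adjusted p = 0.824), and the shared probe set differed by 0.15 without a call.

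**Figure D3:**
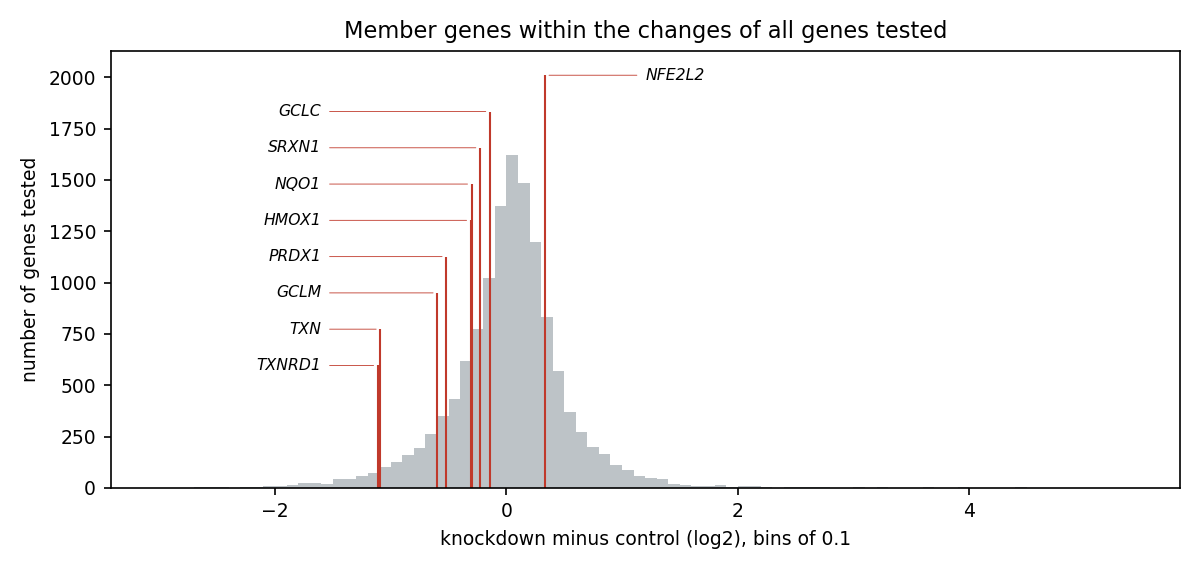
Number of genes tested (vertical axis) by their change in knockdown minus control on the log2 scale (horizontal axis, bins of 0.1), over 12939 genes, with a red line at the change of each of the 9 members that passed the filter. TXNRD1 and TXN stand in the lower tail, where 2.56% and 2.68% of genes have a lower change, and the other members stand within the body of the distribution.

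Promoter sequence was looked up for the members in RefSeq (GRCh38.p14), 250 bases before to 50 after each annotated start, and 8 of the 10 members matched with 10 windows. The core of the antioxidant response element, TGACNNNGC on either strand, occurred in 3 of these 10 windows. They were those of GCLM and TXNRD1, and sequence further from the starts was not searched. Over all 35116 promoter windows given there, 13.3% held it. The AP-1 element TGANTCA, whose letters can overlap that core, occurred in the OSGIN1 window and in 7.71% of all windows. The 250 bases before the start are shown for both TXNRD1 windows and for GCLM, because these hold the core, and for TXN, because it fell as TXNRD1 did. They run 5′ to 3′ on the gene's strand, with matches to the core in capitals.
TXNRD1 first window (chr12:104215529-104215778, plus strand): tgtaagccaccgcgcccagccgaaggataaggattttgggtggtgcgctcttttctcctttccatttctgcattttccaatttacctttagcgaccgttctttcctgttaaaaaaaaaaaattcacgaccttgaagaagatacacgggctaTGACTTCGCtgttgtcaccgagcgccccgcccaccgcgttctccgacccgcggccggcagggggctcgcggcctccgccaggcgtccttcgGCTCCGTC
TXNRD1 second window (chr12:104286782-104287031, plus strand): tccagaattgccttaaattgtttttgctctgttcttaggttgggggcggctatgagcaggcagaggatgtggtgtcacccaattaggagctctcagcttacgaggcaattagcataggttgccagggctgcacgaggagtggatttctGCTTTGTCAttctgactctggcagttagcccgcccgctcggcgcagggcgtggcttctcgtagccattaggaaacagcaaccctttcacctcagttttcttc
GCLM (chr1:93909431-93909680, minus strand): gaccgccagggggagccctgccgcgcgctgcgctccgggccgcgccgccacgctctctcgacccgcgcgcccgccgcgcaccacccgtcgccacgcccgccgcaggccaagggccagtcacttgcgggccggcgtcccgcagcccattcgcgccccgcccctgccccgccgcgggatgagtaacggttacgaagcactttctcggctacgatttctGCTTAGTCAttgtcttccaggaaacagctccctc
TXN (chr9:110256508-110256757, minus strand): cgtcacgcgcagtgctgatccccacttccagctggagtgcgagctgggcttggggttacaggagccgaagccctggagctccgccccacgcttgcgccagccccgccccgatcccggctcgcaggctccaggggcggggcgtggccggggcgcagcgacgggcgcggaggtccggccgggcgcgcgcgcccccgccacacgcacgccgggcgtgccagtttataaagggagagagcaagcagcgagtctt

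In the first TXNRD1 window the core stood at positions -99 to -91 from the start and again on the opposite strand from -8 across the start to position 1, so that its last base lies outside the stretch shown. In the second TXNRD1 window it stood on the opposite strand at -102 to -94, and in GCLM on the opposite strand at -34 to -26. Around these last matches GCLM had gatttctGCTTAGTCAtt and TXNRD1 had gatttctGCTTTGTCAtt, a stretch of 18 bases that differed by 1 substitution, A12T, counted from the 5′ end with the GCLM base first. This likeness was noticed after the sequences had been seen. The matches are a description of letters within these windows and were not tested for NRF2 binding.

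The regulators of NRF2 did not move in 1 direction. Of 9 NRF2 control genes tested, 5 were higher, 2 lower and 2 not called, with a median change of 0.45. Of all genes tested, 25.3% were called higher and 22.0% lower. KEAP1, the NRF2 inhibitor, averaged 7.26 ± 0.04 in knockdown and 7.82 ± 0.19 in control cultures (SD, n = 3 each) and fell by 0.56 (SE 0.11, limma, adjusted p = 6.00e-05). RBX1, the ring subunit of the ligase, averaged 8.87 ± 0.05 in knockdown and 9.54 ± 0.06 in control cultures (SD, n = 3 each) and fell by 0.67, while the scaffold CUL3 differed by -0.10 and was not called. MAFF, a small MAF partner, averaged 7.04 ± 0.22 in knockdown and 5.63 ± 0.23 in control cultures (SD, n = 3 each) and rose by 1.41, or 2.66-fold, whereas MAFG differed by 0.15 and was not called. NFE2L1, the gene of the relative NRF1 that drives proteasome genes, averaged 9.27 ± 0.04 in knockdown and 7.97 ± 0.17 in control cultures (SD, n = 3 each) and rose by 1.31, or 2.47-fold. SQSTM1, the autophagy receptor p62 that can bind KEAP1, rose by 0.45, and by 1.503 with unmarked probe sets put before those with an _x_ or _s_ in their name. BACH1 rose by 0.48 and BTRC, part of a second ligase for NRF2, by 0.47, but with the mean over their probe sets they differed by 0.16 and 0.10 and were not called.

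The wider pathway did not move in 1 direction. Over the 64 genes tested in the 7 other lists, 22 were higher, 21 lower and 21 not called, and the median change was -0.01. Beside these and the counts of each list stand 25.3% of all genes tested called higher and 22.0% called lower. Of 19 other glutathione genes, 6 rose and 8 fell (median change -0.06). SLC7A11, the cystine importer that supplies glutathione synthesis, averaged 8.93 ± 0.08 in knockdown and 6.49 ± 0.19 in control cultures (SD, n = 3 each) and rose by 2.44, or 5.42-fold (limma, adjusted p = 1.26e-17). Its partner chain SLC3A2 averaged 9.54 ± 0.03 in knockdown and 8.02 ± 0.12 in control cultures (SD, n = 3 each) and rose by 1.52. CHAC1, which degrades glutathione, rose by 3.69, and GSTP1, a glutathione transferase, fell by 0.93. SLC7A11, SLC3A2 and CHAC1 are known targets of ATF4. Neither the part of ATF4 nor that of NRF2 in these changes was tested.

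Of 13 other thioredoxin, peroxiredoxin and related genes, 4 were higher, 3 lower and 6 not called, with a median of -0.02. TXNIP, which binds and inhibits thioredoxin, averaged 8.68 ± 0.07 in knockdown and 7.76 ± 0.13 in control cultures (SD, n = 3 each) and rose by 0.92, or 1.89-fold (limma, adjusted p = 2.77e-09), in the cultures where TXN and TXNRD1 were lower. SESN2, a stress-responsive sestrin, rose by 2.18. PRDX3, the mitochondrial peroxiredoxin, fell by 0.43, or by 0.20 when its probe sets were averaged. MSRB2, a mitochondrial methionine sulfoxide reductase, rose by 0.62 but differed by 0.14 without a call with unmarked probe sets first. The mitochondrial counterparts of the thioredoxin pair, which were singled out after their values were seen, were not called: TXN2 differed by -0.01 (limma, adjusted p = 0.951) and TXNRD2 by -0.02 (limma, adjusted p = 0.907). Whether TXN and TXN2 differed in their change was not tested.

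All 5 tested genes of NADPH supply were called, 2 higher and 3 lower, against 47.3% of all genes tested in either direction. IDH1, cytosolic isocitrate dehydrogenase, averaged 8.10 ± 0.04 in knockdown and 6.73 ± 0.16 in control cultures (SD, n = 3 each) and rose by 1.37, or 2.58-fold. The pentose phosphate enzymes TALDO1 and PGD fell by 0.82 and 0.70, PGD by 0.25 when its probe sets were averaged. ME1, malic enzyme, rose by 0.44 but was not called with that mean (difference 0.25, limma, adjusted p = 0.0574).

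Of 5 other haem and iron genes tested, 3 rose and 0 fell (median change 0.29), against 25.3% of all genes tested called higher. FTL, the ferritin light chain that stores iron and a known NRF2 target, averaged 11.80 ± 0.01 in knockdown and 10.77 ± 0.13 in control cultures (SD, n = 3 each) and rose by 1.03, or 2.04-fold. That probe set carries the _x_ mark and can read related sequences. BLVRB, a biliverdin reductase, averaged 7.82 ± 0.06 in knockdown and 6.81 ± 0.15 in control cultures (SD, n = 3 each) and rose by 1.01. BLVRA, the other biliverdin reductase, rose by 0.29, but the difference was 0.06 without a call with unmarked probe sets first, and the call was lost without control replicate 3 (limma, adjusted p = 0.0533).

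Of 11 detoxification and export genes, 2 were higher, 4 lower and 5 not called, with a median of -0.23. PIR, the iron-binding protein pirin and a known NRF2 target, averaged 5.35 ± 0.06 in knockdown and 6.51 ± 0.15 in control cultures (SD, n = 3 each) and fell by 1.16, or 2.24-fold (limma, adjusted p = 1.42e-09). EPHX1, an epoxide hydrolase, rose by 0.44. The carbonyl reductase CBR3 fell by 0.38 and the aldo-keto reductase AKR1B10 by 0.34, with overlap between the groups for AKR1B10. Their calls were lost without knockdown replicate 2 (limma, adjusted p = 0.0572 for CBR3 and 0.110 for AKR1B10) and without control replicate 1 (0.0520 and 0.0607), and that of AKR1B10 also without knockdown replicate 1 (0.148) and control replicate 2 (0.120). Of the 2 superoxide and peroxide enzymes tested, SOD1, the cytosolic superoxide dismutase, averaged 10.70 ± 0.06 in knockdown and 11.78 ± 0.08 in control cultures (SD, n = 3 each) and fell by 1.08, or 2.12-fold (limma, adjusted p = 2.06e-16), while CAT, catalase, differed by -0.07 and was not called.

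**Figure D4:**
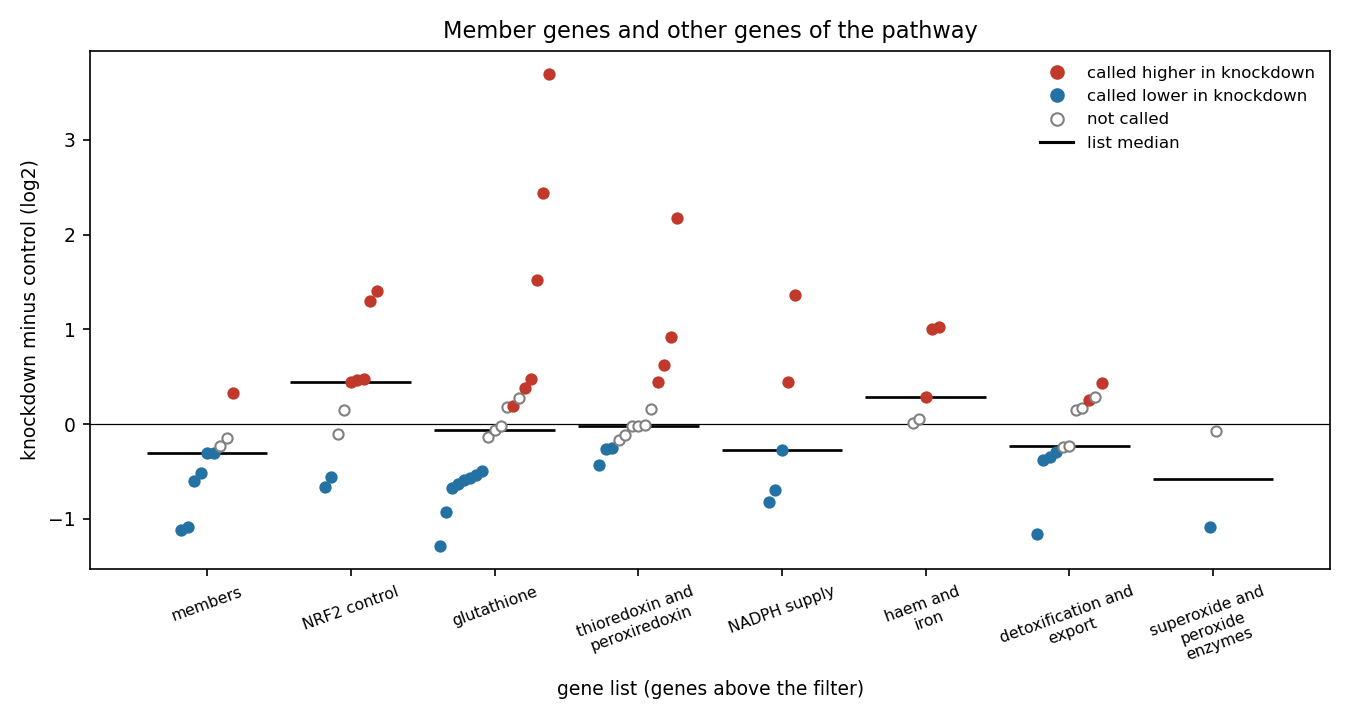
Change in knockdown minus control on the log2 scale (vertical axis) of each tested gene, in the 9 member genes and in the 7 other lists of the pathway (horizontal axis), coloured where called by limma and with a line at each list's median. The members lie mostly below 0 with a median of -0.31, with 6 called lower and 1 higher. Of the 64 genes tested in the 7 other lists, 22 were called higher and 21 lower. Their changes run from GLRX2 at -1.28 to CHAC1 at 3.69. The haem and iron list holds calls in the higher direction only (3 genes). The list of superoxide and peroxide enzymes holds 1 call, which is lower. No list was tested as a set.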

How the data were processed

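The values are log2 expression values per probe set, as the authors deposited them; their form, log2(signal + 16), was read from the floor of the table. MAS5 and PLIER are named by the submitters' processing notes, without version or role; which of them made the values, and the scaling between arrays, are not given in the sources used here. Groups and replicate numbers came from the sample titles; a label text on embryos contradicts the cell line and was not used. The 62 Affymetrix control probe sets stayed out of the tests. Under the platform annotation 41091 probe sets had 1 gene symbol, 1801 several and 11721 none here.

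The deposited values were not normalized further. Each gene was read by the probe set with the highest mean over 6 arrays among those with 1 symbol and kept for the test from 5.49 upward (the median over non-control probe sets), which left 12939 of 19775 genes. Knockdown minus control was fitted with limma 3.58.1 (lmFit, eBayes with intensity trend) in R 4.3.3, adjusted by Benjamini-Hochberg, with a threshold of 0.05. A second fit of the same kind ran over all 54613 non-control probe sets with no filter. The fit was tested on simulated data. That simulation had independent noise and far fewer changed genes than were called here, so it does not bear on single calls. Lists are given by counts and medians, with no set test. Precision is limited by the number of arrays. The members and lists were chosen with earlier results of these data known. Genes were named by rule: all members, CTNNB1, every NRF2 control gene and up to 4 called genes of each other list by adjusted p.

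Replicate numbers are shared by the groups, but deviations of same-numbered arrays from their group means correlated at -0.07, -0.22 and -0.33. These values gave no sign that the numbers pair the cultures, though so few arrays cannot exclude it. Alternatives were the replicate block, 3 scalings, 2 filters, 2 probe set rules, 4 other tests or variance models, an offset of 64 and leaving out each array. Of the pathway genes listed, 6 had no probe set of 1 symbol and were not analysed here.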

Additional observations from a re-analysis of the deposited data

How the results depend on the processing

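The count of member genes called lower was 4 to 7 over all alternatives, against 6, and that of members called higher was 1 except for 0 with the mean over probe sets and 0 in the test against a 1.2-fold change. That test also gave 12 pathway genes called higher, 2825 genes called in all, and 0 member probe sets higher and 5 lower. The balance of calls over all genes depended on the scaling between arrays. As deposited, 3273 genes were called higher and 2841 lower. The counts were 2765 and 3316 after centring on array medians, 3115 and 3206 by quantile normalization, and 3053 and 3263 by cyclic loess. With the replicate block 0 member probe sets were called higher and 4 member genes lower. HMOX1 and NQO1 were then no longer called (limma, adjusted p = 0.0534 and 0.0610). Whether the numbers pair the cultures was not settled. Leaving out an array gave 0 to 1 member probe sets called higher. TXN, TXNRD1 and PRDX1 were called lower in each of 20 settings, the reported one included, and GCLM in 19. Direction turned for NQO1 with the mean over probe sets (0.040). It also turned for values never called: NFE2L2 on 1567015_at under quantile normalization (-0.0018), cyclic loess (-0.0078), and in fits that left out an array (-0.020 to 0.15), GCLC on 1555330_at when an array was left out (-0.0030 to 0.36), and OSGIN1 likewise (-0.014 to 0.19). An offset of 64 shrank changes of dim genes by construction: HMOX1 to -0.20, GCLM to -0.38, PIR to -0.65 and MAFF to 0.88. Values of single genes and probe sets were counted once for each alternative, so the same gene enters many times. Of these values, 984 kept their direction and their side of the threshold, 70 no longer passed it, 15 passed it anew and 7 turned. A value called in neither fit counts as kept if its direction held. Signal near the floor limits OSGIN1 and the 6 dim member probe sets, where little room is left for a fall.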
